A study of Mus musculus with 10 samples.

Results

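The genes described here are named as genes for proteins of the mitochondrial ribosome. They are the 79 of 13492 genes in the deposited table whose symbols begin with Mrpl or Mrps and a digit, 50 Mrpl (large subunit by symbol) and 29 Mrps (small subunit by symbol). The counts by symbol include the pseudogene Mrpl23-ps1 and Mrps36, whose protein belongs to another complex. RNA sequencing measured them in tibialis anterior, the fast muscle along the shin, from mice on a C57BL/6 background that were 6 months old and had fasted for 3 h. Of the 10 libraries, 5 are labelled Lrtm1 KO and 5 Lrtm1 flox control, whereas the series' design text states a smaller number per group. Lrtm1 encodes a leucine-rich repeat membrane protein. The driver of recombination and the deleted part of the gene remain unstated in the labels. Litter 108 gave 1 control and 2 knockout libraries, litter 110 gave 2 and 1, and litter 112 gave 2 and 2. Separate animals per library are not named in the labels, so the p-values cover only the spread among these samples, which may be technical.

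Lrtm1 itself went against the labels. It stood at 5.68 ± 0.07 log2 CPM (CPM, counts relative to the library total; SD, n = 5) in the libraries labelled control and at 6.12 ± 0.10 (SD, n = 5) in the libraries labelled knockout. That difference of 0.437 (SE 0.0707) passed limma's test with an adjusted p of 0.0344. "Control" and "knockout" below therefore mean libraries as labelled. The values are the authors' adjusted log2 CPM, from which litter and 3 further unnamed terms had been removed with genotype kept, and the read depth is unknown. All 10 markers of skeletal muscle, among them Acta1, Ckm and Myh4, were detected and summed to between 125000 and 143000 CPM per library. The SDs are those of adjusted values, and standard errors and intervals are minimum widths.

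Mitochondria keep their own ribosome, which makes the few respiratory chain proteins that mitochondrial DNA encodes. Its rRNAs come from mitochondrial DNA, whereas all its proteins are encoded in the nucleus, translated in the cytosol and imported. Some of these proteins have counterparts in bacterial ribosomes and others are specific to mitochondria. The large subunit forms peptide bonds, and the small subunit binds the mRNA and decodes it. Skeletal muscle, and oxidative fibres most of all, depends on the respiratory chain that this ribosome helps to build. Genes for mitochondrial ribosomal proteins are widely expressed, and the factors NRF1, GABP (of the ETS family) and YY1 are textbook regulators of nuclear genes for mitochondria.

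Promoter windows from 250 bases before to 50 bases after the annotated start are printed for 5 large and small subunit genes, from RefSeq on GRCm38.p6. Mrpl14 and Mrps33 had the smallest p of their subunits between the groups. Mrpl33 and Mrpl12 were called in the less strict of the fits described below. Mrpl17 was chosen after its letters were seen, because its window holds both an ETS and an NRF1 match, although 6 other genes also held 2 of the 3 motif kinds. Capitals mark matches to CCGGAAG (ETS core) or CGCATGCG (NRF1) on either strand, and each sequence runs 5′ to 3′ along the gene.
Mrpl14, chr17:45686099-45686398, plus strand: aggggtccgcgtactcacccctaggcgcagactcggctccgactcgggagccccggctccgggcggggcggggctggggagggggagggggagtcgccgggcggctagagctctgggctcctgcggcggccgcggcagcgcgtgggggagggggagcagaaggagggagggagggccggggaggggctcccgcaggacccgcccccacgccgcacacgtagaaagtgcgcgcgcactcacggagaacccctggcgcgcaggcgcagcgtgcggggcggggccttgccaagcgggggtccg
Mrpl33, chr5:31613701-31614000, plus strand: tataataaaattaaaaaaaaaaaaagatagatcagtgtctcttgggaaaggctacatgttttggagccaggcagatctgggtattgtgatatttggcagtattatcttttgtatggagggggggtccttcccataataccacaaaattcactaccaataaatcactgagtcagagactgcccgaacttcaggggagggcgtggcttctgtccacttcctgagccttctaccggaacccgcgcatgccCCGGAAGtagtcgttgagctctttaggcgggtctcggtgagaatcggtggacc
Mrpl12, chr11:120484387-120484686, plus strand: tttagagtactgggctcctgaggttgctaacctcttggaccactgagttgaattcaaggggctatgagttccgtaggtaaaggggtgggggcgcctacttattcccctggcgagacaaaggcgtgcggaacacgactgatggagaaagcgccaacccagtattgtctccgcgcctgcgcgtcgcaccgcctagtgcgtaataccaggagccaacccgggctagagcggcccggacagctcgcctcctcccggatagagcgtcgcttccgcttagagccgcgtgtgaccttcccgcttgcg
Mrpl17, chr7:105811038-105811337, minus strand: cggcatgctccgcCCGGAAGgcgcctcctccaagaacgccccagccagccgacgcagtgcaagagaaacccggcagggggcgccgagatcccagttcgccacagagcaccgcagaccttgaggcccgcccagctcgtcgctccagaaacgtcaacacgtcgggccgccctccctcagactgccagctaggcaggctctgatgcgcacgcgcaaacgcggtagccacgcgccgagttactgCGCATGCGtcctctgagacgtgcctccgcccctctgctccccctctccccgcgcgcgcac
Mrps33, chr6:39810887-39811186, minus strand: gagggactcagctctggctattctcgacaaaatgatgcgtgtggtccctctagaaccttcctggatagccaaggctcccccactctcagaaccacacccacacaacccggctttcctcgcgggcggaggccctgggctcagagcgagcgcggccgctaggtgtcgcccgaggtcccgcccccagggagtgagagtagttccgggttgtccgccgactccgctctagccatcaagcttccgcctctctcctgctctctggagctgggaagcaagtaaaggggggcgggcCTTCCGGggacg
The Mrpl17 window carries the ETS letters 237 bases before the start and the palindromic NRF1 letters 10 bases before it. In Mrpl33 the ETS letters lie 3 bases before the start, and in Mrps33 they lie 38 bases after it, on the opposite strand. The Mrpl33 window lies inside the GENCODE gene, which begins further upstream at 31596935. None of the 4 motifs searched was found in the windows of Mrpl14 and Mrpl12.

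Of the 79 genes, 69 matched the RefSeq promoter table, with 75 windows. The ETS core CCGGAAG was present in 34.7% of the members' windows, in 17.2% of the windows of tested genes and in 8.86% of all windows of the same length. The NRF1 letters CGCATGCG were present in 9.33% of the members' windows, 3.73% of tested genes' windows and 1.87% of all. The YY1 letters AANATGGCG were present in 14.7%, 5.05% and 2.38% in the same order. The TATA box letters TATAAA were present in 6.67%, 7.39% and 13.6%. By subunit, the ETS core stood in 31.2% of large and 40.7% of small subunit windows, and the NRF1 letters in 12.5% and 3.7%, the latter being 1 window. All motifs were searched on both strands and none contains another. These are letter matches, not shown to be bound sites.

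The genes were also often arranged head to head with another gene. For 28 of the 79 (35.4%), the start lay within 1000 bases of the start of a gene on the opposite strand, against 15.3% of the 12110 tested genes with a position in GENCODE M21 on GRCm38. Mrpl46 and Mrps11, which encode proteins of different subunits, form such a pair on chromosome 7, and their annotated gene bodies overlap at the starts. Mrpl32 begins 75 bases from Psma2, a proteasome subunit gene, and their knockout minus control differences were -0.135 and -0.124 on the log2 scale. Mrps12 begins 172 bases from Sars2, which encodes the mitochondrial seryl-tRNA synthetase, with differences of -0.034 and -0.218. Over all 27 pairs that hold a member, the differences had opposite signs in 15 and the same sign in 12. Mrpl40 and Hira, a histone chaperone gene, were at -0.158 and 0.042, and Mrps18b and Ppp1r10, a phosphatase regulator gene, at -0.030 and 0.384. The pairs shown with values were chosen after those were seen. Use of the strand in counting is not stated, so reads of overlapping partners may not have been told apart.

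All 79 genes passed the filter on low values (a mean log2 CPM of at least 0). Their means ran from 1.98 log2 CPM for Mrpl23 to 6.90 for Mrpl42, and together they made up 0.193% to 0.208% of the CPM of a library. Divided by transcript length, large subunit genes had a median level of 4.15 log2 CPM per kb (range 1.69 to 7.48) and small subunit genes 3.90 (1.15 to 5.43). Both lay above the median of 2.01 over all tested genes. With the longest transcript of any kind as the length, the medians were 3.89 for the large subunit, 3.10 for the small and 1.91 for all tested genes, so the gap between the subunits depends on the transcript taken. The interquartile ranges of the subunits overlapped widely, from 3.10 to 4.68 for the large and from 2.78 to 4.40 for the small. In all, 5 large subunit genes lay above the highest small subunit gene, Mrps21. This count also depends on the transcript taken. With the longest of any kind, Mrpl14 (5.87) stayed above Mrps21 (5.43). Mrpl42 (5.18), Mrpl30 (4.99), Mrpl37 (4.60) and Mrpl33 (2.96) then lay below it.

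Per kb, the highest large subunit genes were Mrpl42 at 7.48 log2 CPM, Mrpl14 at 5.87 and Mrpl30, the counterpart of bacterial L30, at 5.85. With the longest transcript of any kind, Mrpl42, which encodes a mitochondria-specific protein, stood at 5.18 and Mrpl30 at 4.99, while Mrpl14 kept its value. The highest genes named Mrps were Mrps21, the counterpart of bacterial S21, at 5.43, the mitochondria-specific Mrps23 at 5.25 and Mrps18a at 5.21. Mrps18a stood at 3.89 with its longest transcript of any kind, while Mrps21 and Mrps23 kept their values. At the low end lay Mrpl17 (1.69), Mrpl19 (1.80) and Mrpl32 (1.82) in the large subunit and Mrps26 (1.15), Mrps25 (1.45) and Mrps35 (1.48) in the small. These low values belong to genes with long annotated transcripts, from 3013 bases for Mrpl32 to 7300 for Mrpl17. If shorter transcripts were the ones expressed, their levels per kb would be higher.

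**Figure D1:**
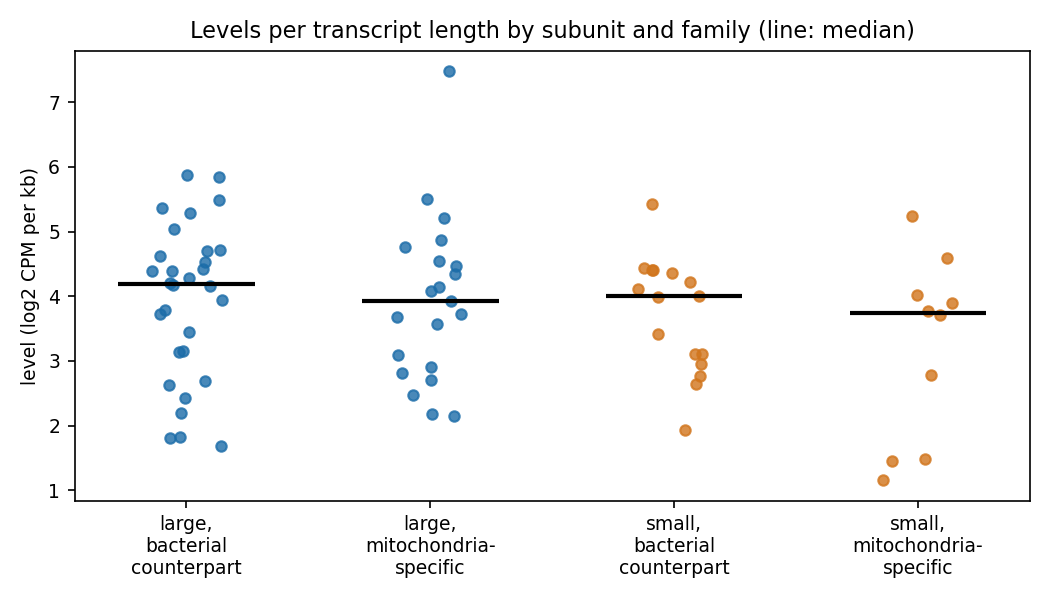
Level of each gene in log2 CPM per kb of transcript (y axis; each point is the mean of 10 libraries) by subunit in the structure and by family, with the line at the median. The 4 groups overlap widely, and the highest point is Mrpl42 at 7.48.

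Between the groups, no mitochondrial ribosomal protein gene passed the threshold. With limma, litter and the removed terms in the fit, 0 of 79 had a Benjamini-Hochberg adjusted p under 0.05, where 0.335% of all 12223 tested genes did (33 higher in knockout, or 0.27%, and 8 lower, or 0.0655%). At an unadjusted p under 0.05 there were 3 (3.8%), against 10.1% of all tested genes. A fit that does not count the removed terms, and so is too liberal, called 3 members lower (Mrpl14, Mrpl33 and Mrpl12) and 0 higher. That is 3.8% of the members, against 3.48% of all tested genes lower, 5.15% higher and 8.62% in either direction in that fit. The members' share of called genes was thus near the background for lower calls.

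Small differences below 0 prevailed. In 60 of 79 genes (75.9%) the knockout minus control difference was below 0, against 51.4% of all tested genes. The median difference was -0.038 on the log2 scale, against -0.004 over all tested genes. The median size of the difference regardless of sign was 0.047 for members and 0.079 for all tested genes. In 73 of 79 genes the 95% interval lay within a log2 difference of 0.32 either way, which is 1.25-fold, a bound chosen after the data were seen. The other 6 were Mrpl33, Mrpl40, Mrpl20, Mrpl32, Mrpl23 and Mrps11, and the bound farthest from 0 was 0.49, for Mrpl23.

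**Figure D2:**
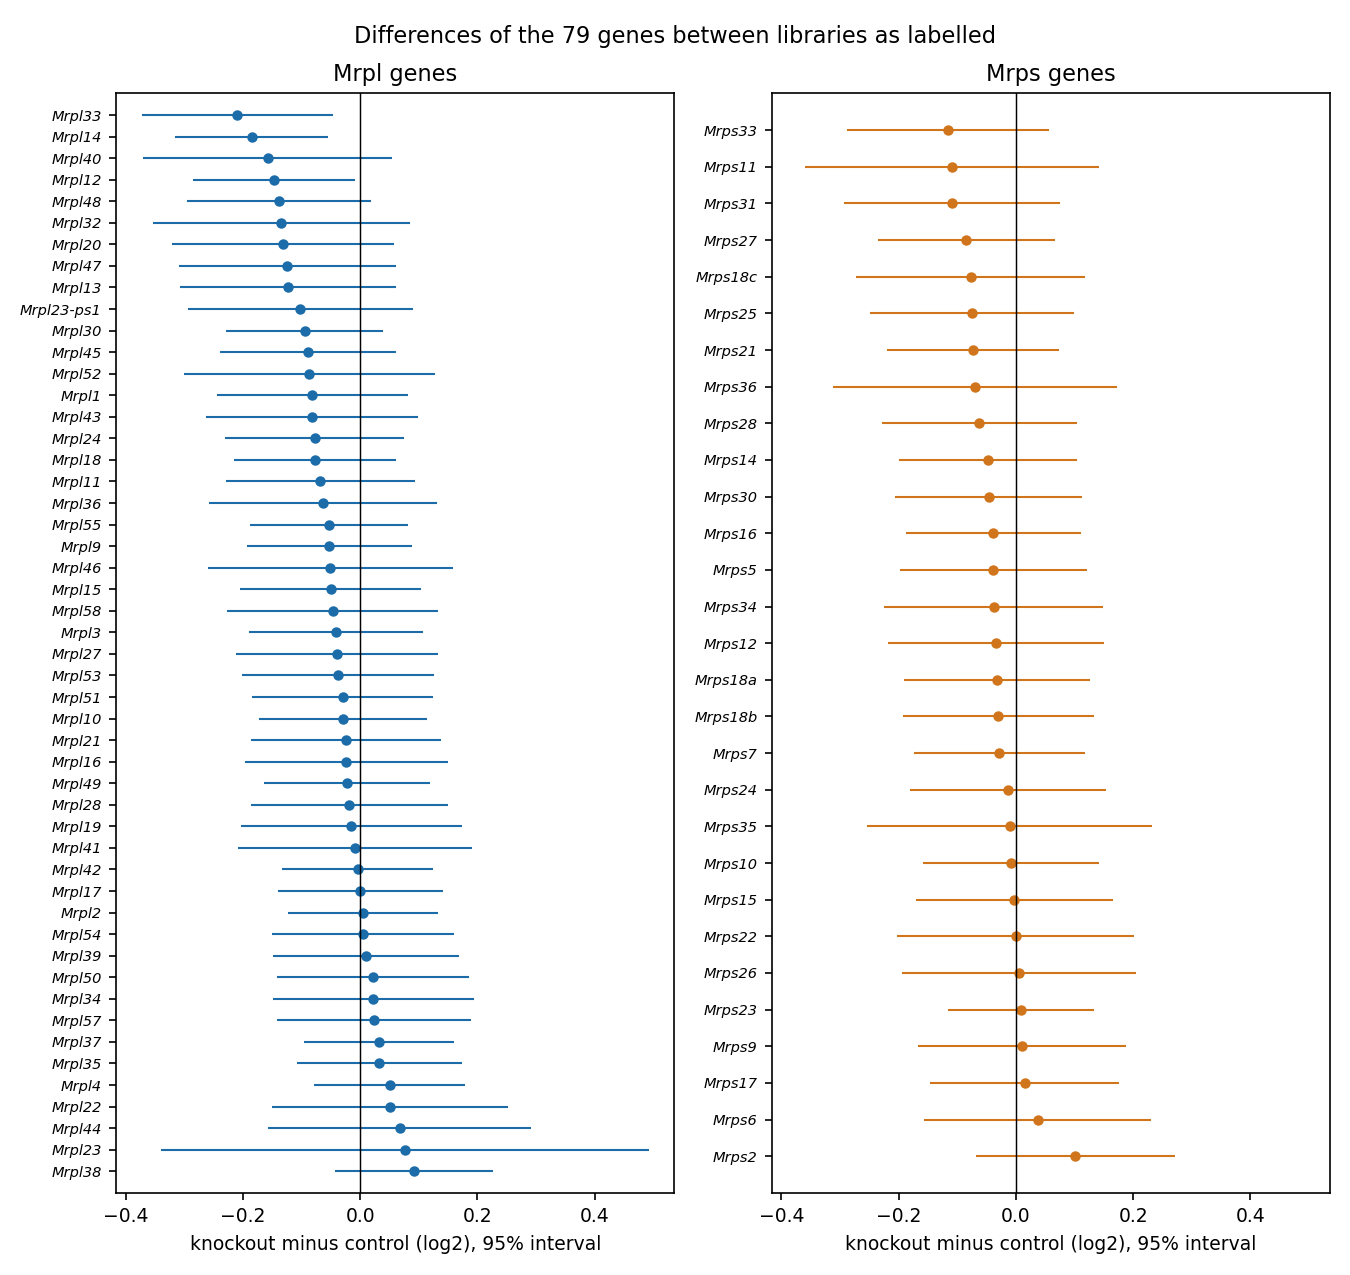
Knockout minus control difference on the log2 scale (x axis) of each of the 79 genes (y axis), with its 95% interval from limma, Mrpl genes on the left and Mrps genes on the right. Most points lie left of 0, and 3 intervals, those of Mrpl33, Mrpl14 and Mrpl12, do not reach 0.

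Mrpl14 had the smallest p of the members. It encodes the counterpart of bacterial L14, which sits on the face of the large subunit that meets the small one and also contacts an assembly factor module that holds the subunits apart. Its 3 exons span 45686322 to 45698495 of chromosome 17, plus strand. Mrpl14 was at 5.32, 5.34, 5.35, 5.28 and 5.39 log2 CPM in control replicates 1, 3, 4, 5 and 6, and at 5.16, 5.16, 5.13, 5.11 and 5.18 in knockout replicates 1 to 5. All knockout libraries lay below all control libraries. Knockout minus control came to -0.185 (SE 0.0589, 1.14-fold), and limma's adjusted p was 0.313, or 0.00972 with the removed terms not counted. By litter the differences were -0.16 (108), -0.21 (110) and -0.19 (112).

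Mrpl33, on chromosome 5 from 31596935 to 31664384, encodes the counterpart of bacterial L33, a small protein of the large subunit. It was at 4.60, 4.53, 4.54, 4.48 and 4.46 log2 CPM in the control libraries and at 4.24, 4.31, 4.29, 4.45 and 4.28 in the knockout libraries. The groups did not overlap, but knockout 4 lay just under the lowest control, control 6. The difference of -0.210 (SE 0.0739) was the lowest of all members, with an adjusted p of 0.355 in limma and 0.0326 with the removed terms not counted. Left out in turn, single libraries moved it between -0.269 (without knockout 4) and -0.077 (without control 1) in fits that kept the removed terms. The litter differences of Mrpl33 were -0.33 (108), -0.24 (110) and -0.11 (112). Without control 1, litter 108 has no control library, and -0.077 lay beyond the differences of litters 110 and 112. The -0.077 is therefore not an effect of the left-out library alone.

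Mrpl12 encodes the counterpart of bacterial L7/L12, the protein of the ribosomal stalk that recruits translation factors, and lies on chromosome 11 from 120484613 to 120489065. It stood at 5.08, 5.13, 5.01, 5.10 and 5.11 log2 CPM in the control libraries and at 4.92, 4.96, 4.98, 4.96 and 4.88 in the knockout libraries, again without overlap. Its difference of -0.147 (SE 0.0626) gave adjusted p = 0.463 in limma and 0.0361 with the removed terms not counted. Without single libraries, and with the removed terms kept, it lay between -0.224 (knockout 3) and -0.102 (knockout 5).

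In 1 further gene, Mrpl52, the knockout libraries all lay below the controls, and in 1, Mrpl4, all above. Both were picked out after their values were seen. That makes 4 of 79 members (5.06%) without overlap on the lower side, against 7.63% of all tested genes, and 1 (1.27%) on the higher side, against 8.56%. The differences were small, at -0.087 for Mrpl52 (adjusted p = 0.815 by limma) and 0.050 for Mrpl4 (adjusted p = 0.824 by limma).

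**Figure D3:**
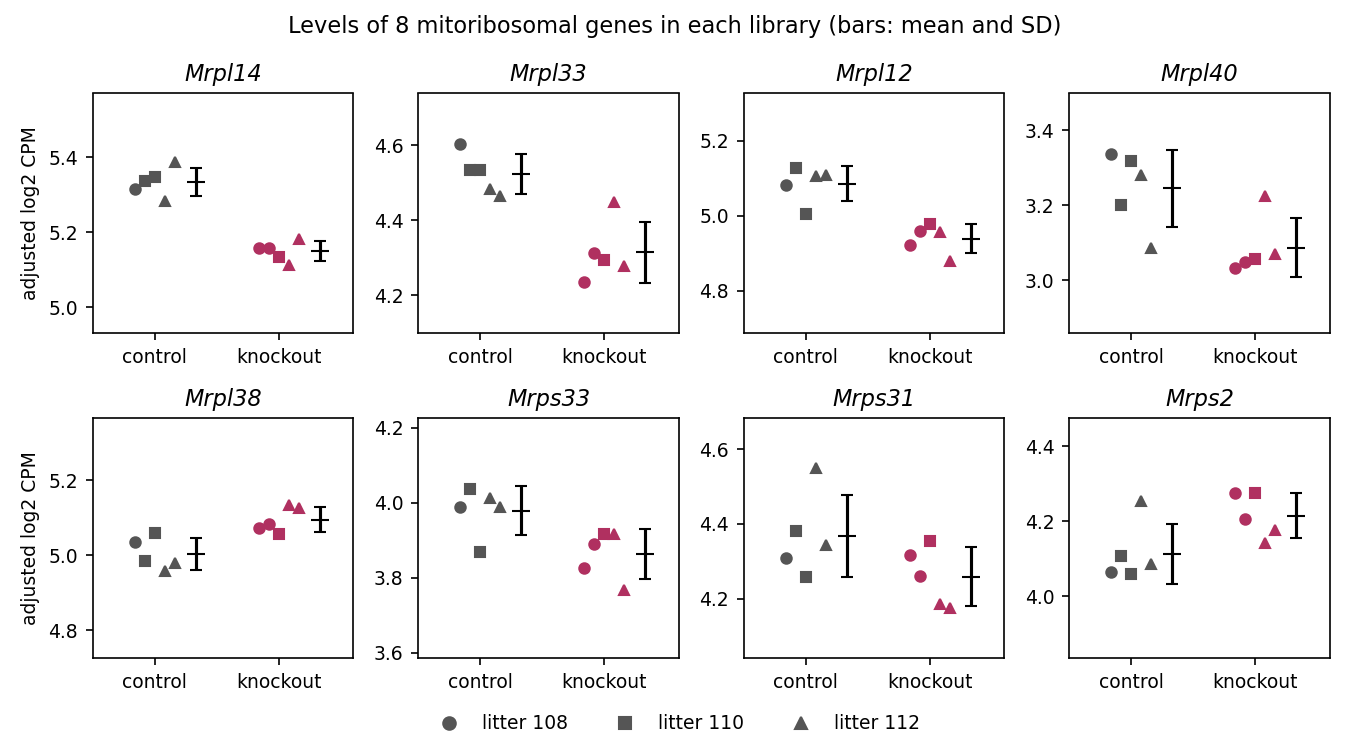
Adjusted log2 CPM (y axis, the same span in every panel) of 8 genes in each library labelled control or knockout, with the litter as the symbol and the mean and SD (n = 5) as bars. The groups are apart for Mrpl14, Mrpl33 and Mrpl12 and overlap for Mrpl40, Mrps33, Mrps31 and Mrps2, while for Mrpl38 they overlap at 1 pair of nearly equal values.

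Mrpl40, a mitochondria-specific protein of the large subunit whose human gene lies in the DiGeorge syndrome region, had the largest difference below 0 after Mrpl33 and Mrpl14, at -0.158 (SE 0.0963). It was at 3.34, 3.20, 3.32, 3.28 and 3.09 log2 CPM in control libraries and at 3.03, 3.05, 3.06, 3.23 and 3.07 in knockout libraries. The groups overlapped, because knockout 4 was high and control 6 low, and limma gave an adjusted p of 0.636. In fits without single libraries that kept the removed terms, the Mrpl40 difference lay between -0.229 (control 6) and -0.003 (control 1). Its litter differences were -0.30 (108), -0.20 (110) and -0.04 (112). Without control 1, litter 108 has no control library, and -0.003 lay beyond the differences of litters 110 and 112. That value is therefore not an effect of the left-out library alone.

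On the higher side, Mrpl38, a mitochondria-specific protein of the phosphatidylethanolamine-binding protein family, had a difference of 0.092 (SE 0.0612). It was at 5.04, 4.98, 5.06, 4.96 and 4.98 log2 CPM in control libraries and at 5.07, 5.08, 5.06, 5.13 and 5.13 in knockout libraries. The lowest knockout and the highest control library were level at this rounding, and the adjusted p was 0.674 in limma. With the removed terms kept, its difference was 0.167 without knockout 3 and 0.146 without control 1. It lay between 0.069 and 0.118 without any other single library. Mrpl44, whose protein belongs to the RNase III family, stood at 4.15 ± 0.15 (SD, n = 5) in control and 4.22 ± 0.12 (SD, n = 5) in knockout libraries. Mrpl58, a peptidyl-tRNA hydrolase of the release factor family that is built into the large subunit, stood at 3.57 ± 0.07 and 3.52 ± 0.05 (SD, n = 5 each). Both overlapped between the groups.

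In the small subunit, Mrps33 had the smallest p. It encodes a mitochondria-specific protein and lies on chromosome 6 from 39801804 to 39810988 on the minus strand. Mrps33 was at 3.99, 4.04, 3.87, 4.01 and 3.99 log2 CPM in the control libraries and at 3.83, 3.89, 3.92, 3.92 and 3.77 in the knockout libraries. Only control 4 fell within the knockout range. The difference of -0.116 (SE 0.0781) had an adjusted p of 0.677 in limma. With the removed terms kept, it was -0.223 without knockout 3, -0.184 without knockout 2, -0.061 without control 3 and -0.043 without knockout 5.

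Mrps2, the counterpart of bacterial S2, was the small subunit gene with the largest difference above 0, at 0.102 (SE 0.0768, adjusted p = 0.715 by limma). It stood at 4.06, 4.11, 4.06, 4.25 and 4.09 log2 CPM in control libraries and at 4.27, 4.21, 4.28, 4.14 and 4.18 in knockout libraries. Control 5 was the exception among the controls. In fits without single libraries and with the removed terms kept, the difference ran from -0.020 (knockout 3) to 0.152 (control 5).

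The mitochondria-specific Mrps31 was at 4.31, 4.38, 4.26, 4.55 and 4.34 log2 CPM in control libraries and at 4.32, 4.26, 4.35, 4.19 and 4.18 in knockout libraries. The groups overlapped, and the difference of -0.109 (SE 0.0838, adjusted p = 0.719 by limma) was largest in litter 112, at -0.26, against -0.02 in litter 108 and 0.03 in litter 110. With the removed terms kept, the Mrps31 difference was -0.300 without knockout 3 and -0.209 without control 1. It was -0.047 without knockout 5 and -0.044 without control 5. Mrps12, the counterpart of the decoding-centre protein S12, was at 3.95 ± 0.07 in control and 3.91 ± 0.10 in knockout libraries (SD, n = 5 each).

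Some symbols do not name the subunit or the complex in which the protein sits. In all, 3 genes are named after bacterial S18. Mrps18c is counted here as its counterpart in the small subunit, while Mrps18a (large subunit) and Mrps18b (small subunit) are counted among the proteins specific to mitochondria. Mrps18a was at 5.05 ± 0.09 log2 CPM in control and 5.02 ± 0.07 in knockout libraries, Mrps18b at 4.72 ± 0.06 and 4.69 ± 0.09, and Mrps18c at 4.15 ± 0.14 and 4.08 ± 0.05 (SD, n = 5 each). The differences of -0.032, -0.030 and -0.077 were all smaller than the SD of their control libraries. Mrps30 also sits in the large subunit and stood at 3.90 ± 0.04 and 3.86 ± 0.03. Mrps36, now known as a part of the oxoglutarate dehydrogenase complex, had widely spread controls at 4.48 ± 0.20, against 4.41 ± 0.11 in knockout libraries (SD, n = 5 each).

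Mrpl23 and the annotated pseudogene Mrpl23-ps1, on chromosome 2, may share reads. Mrpl23 was at 4.21, 3.22, 5.40, 3.65 and 3.14 CPM in control libraries and at 4.10, 3.66, 3.44, 4.27 and 4.95 in knockout libraries. Mrpl23-ps1 was more abundant in every library, at 17.0 to 21.2 CPM. Whether reads were split between them was not tested, so the level of either gene alone is uncertain. The sum stood at 4.56 log2 CPM in control and 4.49 in knockout libraries.

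Large and small subunit genes had median differences close to each other. The median difference was -0.041 for the 50 large subunit genes, 37 of them below 0, and -0.034 for the 29 small subunit genes, 23 of them below 0. With genes placed by structure, the medians were -0.040 for 51 large and -0.032 for 26 small subunit genes, Mrps36 and the pseudogene left out. Among large subunit genes the median was -0.052 for the 30 with a bacterial counterpart and -0.030 for the 21 specific to mitochondria. For the small subunit these were -0.031 (16 genes) and -0.034 (10 genes). All 3 genes called in the less strict fit encode large subunit proteins with bacterial counterparts. No test was made between these families, since genes of a library are not replicates.

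Per library, the large minus small balance overlapped between the groups. Taken as the median deviation of large subunit genes from their means over all libraries minus that of small subunit genes, it was -0.023, 0.017, 0.022, -0.022 and 0.007 in the control libraries and 0.010, 0.001, -0.011, -0.019 and 0.011 in the knockout libraries. The plain difference of the median log2 CPM of the subunits gave 0.31, 0.31, 0.32, 0.22 and 0.32 in control and 0.19, 0.23, 0.23, 0.27 and 0.23 in knockout libraries, which also overlapped, and it moves with whichever genes stand at the median.

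The differences below 0 were not spread evenly over libraries. The median deviation of the 79 genes from their means was 0.013, 0.029, -0.022, 0.068 and -0.005 in control replicates 1, 3, 4, 5 and 6, and -0.012, -0.020, 0.014, -0.019 and -0.061 in knockout replicates 1 to 5. Control 5 was the highest control library for 40 of the 79 genes (50.6%), against 30.41% of all tested genes. Knockout 5 was the lowest knockout library for 38 (48.1%), against 26.92%, and both libraries come from litter 112. Knockout 3 was the highest of its group for 31 genes (39.2%), against 17.3%. In litter 110, where knockout 3 is the one knockout library, the members' median difference was 0.017, against -0.028 in litter 108 and -0.064 in litter 112. The sign therefore turned in 1 of 3 litters. In 25 of the 79 genes (31.6%) the difference was below 0 in all 3 litters, against 24.2% of all tested genes.

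Leaving out 1 library changed the medians, by an amount that depended on the fit. With the removed terms kept, the small subunit median was 0.014 and the large -0.027 without knockout 5. With litter and genotype alone they were -0.014 and -0.029. Without control 5 they were -0.020 and -0.021, or -0.021 and -0.023 with litter and genotype alone. Without knockout 3, in contrast, they were -0.082 and -0.102, or -0.052 and -0.069 with litter and genotype alone.

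**Figure D4:**
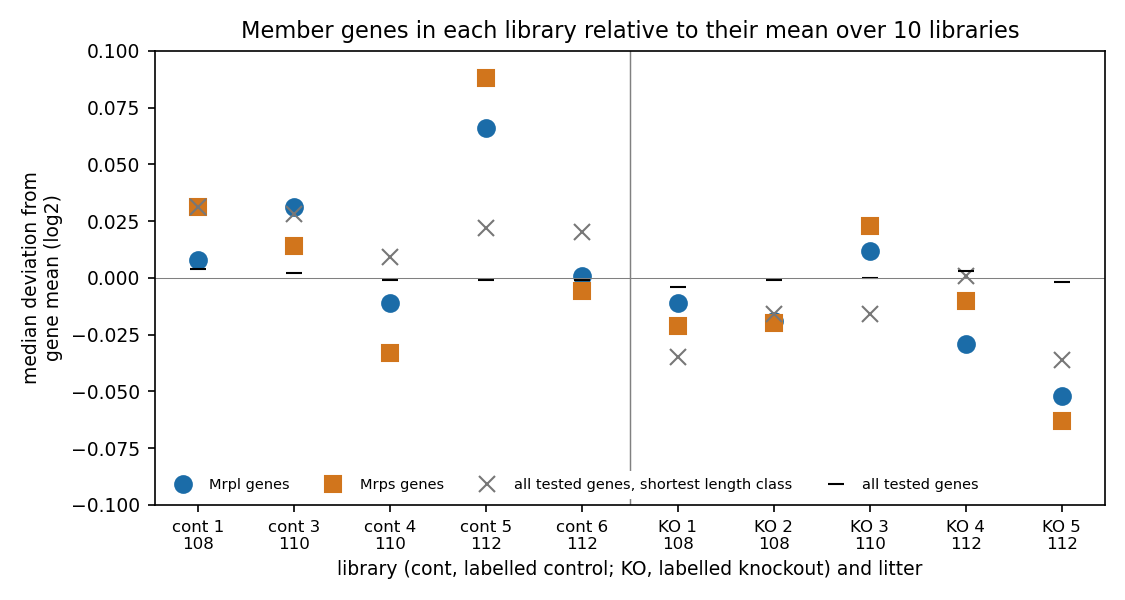
Median deviation of Mrpl genes, Mrps genes, all tested genes and tested genes of the shortest length class from their mean over 10 libraries (y axis, log2) in each library (x axis, with its litter). Control 5 lies highest for both subunits and knockout 5 lowest, while all tested genes stay near 0.

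Transcript length moved with the difference across all genes. Of the members, 52 of 79 belonged to the shortest of 5 classes of transcript length, up to 1769 bases. Over all tested genes, the median difference rose from -0.043 in the shortest class through -0.025, -0.009 and 0.011 to 0.046 in the longest. Members of the shortest class had a median of -0.036, with 40 of 52 below 0, where 65.15% of all tested genes of that class were below 0. When each library was centred within length classes, the median differences were -0.026 for large and -0.016 for small subunit genes. The part of transcript length in the members' difference was not tested further.

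**Figure D5:**
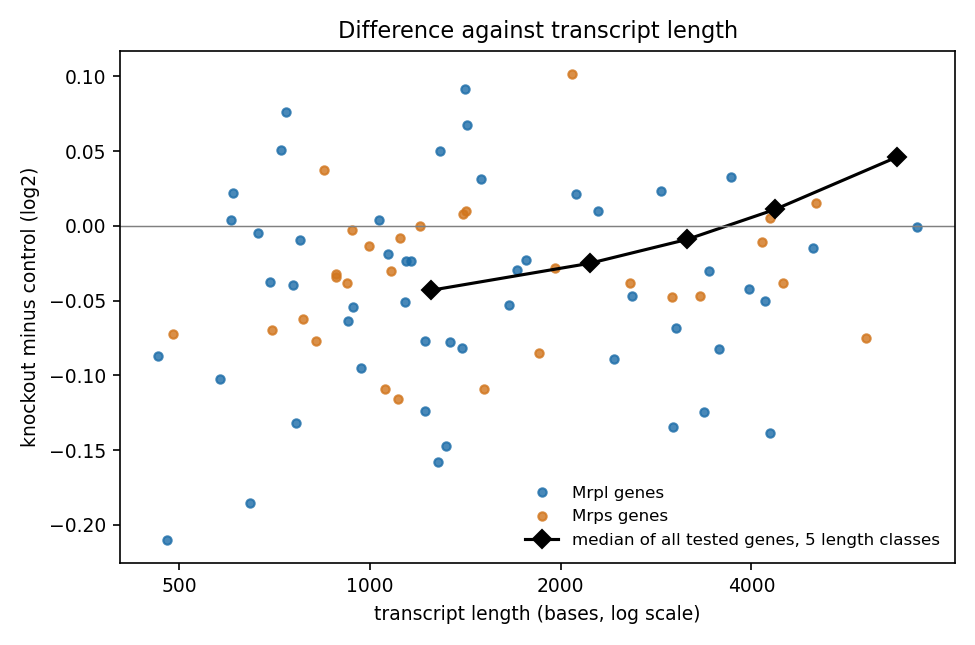
Knockout minus control difference on the log2 scale (y axis) of each Mrpl and Mrps gene against transcript length in bases (x axis, log scale), with the median of all tested genes in 5 length classes as diamonds. The diamonds rise from -0.043 to 0.046, and most member genes lie among the shorter transcripts.

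Few other genes of the same pathway were called in either fit. The 5 further mitoribosomal proteins with other symbols, Dap3, Ptcd3, Chchd1, Aurkaip1 and Gadd45gip1, had differences between -0.085 (Chchd1) and 0.004 (Dap3), none called. Among 31 assembly factors none was called in either fit and 18 were below 0. In 7 of the 31 all knockout libraries lay below all control libraries, and in 1 all lay above. Of all tested genes, 7.63% and 8.56% did so. The smallest p belonged to Mrm1, an rRNA methyltransferase, at 0.191, and to Mterf3 at -0.157 (adjusted p = 0.529 and 0.544 by limma). Among 17 translation factors none was called and 12 were below 0. The release factor Mtrf1l was at 0.166 and the elongation factor Tsfm at -0.119 (adjusted p = 0.674 and 0.688 by limma). Of 20 mitochondrial tRNA synthetases and amidotransferase genes, none was called by the stricter limma fit and 8 were below 0, with a median difference of 0.035. In the less strict fit Gatb, a subunit of the glutamyl-tRNA amidotransferase, was higher, at 0.178 (adjusted p = 0.491, and 0.0409 with the removed terms not counted).

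The RNA components of the ribosome and its products come from mitochondrial DNA. The small subunit rRNA mt-Rnr1 was at 10.29 ± 0.17 log2 CPM in control and 10.65 ± 0.11 in knockout libraries (SD, n = 5 each), which gave a difference of 0.357 (adjusted p = 0.245 in limma, and 0.0396 with the removed terms not counted). The large subunit rRNA mt-Rnr2 differed by 0.144 (adjusted p = 0.727 by limma). Libraries were selected by oligo-dT, so these rRNA values cover only what that selection kept. None of the 13 protein-coding genes of mitochondrial DNA was called in either fit, and their summed level was 206000 to 240000 CPM in control and 211000 to 235000 in knockout libraries. Of 9 tested genes for transcription and replication of mitochondrial DNA none was called. The single-strand binding protein gene Ssbp1 was at -0.139 and the helicase gene Twnk at 0.102.

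Regulators of mitochondrial biogenesis did not pass the threshold in either fit. The coactivator gene Ppargc1a stood at 5.06 ± 0.41 log2 CPM in control and 5.87 ± 0.30 in knockout libraries (SD, n = 5 each), a difference of 0.814 with an adjusted p of 0.212 in limma and 0.0523 with the removed terms not counted. The related Pprc1 differed by 0.256 (adjusted p = 0.392 by limma). Nrf1 differed by 0.010, Gabpa by 0.038 and Yy1 by 0.067 (adjusted p = 0.985, 0.890 and 0.765 by limma), and these encode the factors whose motif letters were counted in the promoter windows.

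Other families of small, abundant proteins were set beside the mitoribosomal genes. Of 76 cytosolic ribosomal protein genes, 73 were below 0, with a median difference of -0.101, and none was called in limma's stricter fit but 6 were lower in the less strict one. Of 37 complex I subunit genes, 33 were below 0, with a median of -0.068, and none was called in the stricter fit but 2 were lower in the less strict one. In that less strict fit 3.48% of all tested genes were lower. Mitoribosomal genes, at 60 of 79 and -0.038, had the median nearest to 0 of these families. All 3 families share the same libraries and short transcripts, with median lengths of 910 bases for cytosolic ribosomal protein genes, 918 for complex I and 1288 for mitoribosomal genes.

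Markers of other cells of muscle tissue were measured in the same libraries. Fewer cells of a type and less RNA per cell cannot be told apart in such bulk samples. Markers of slow and oxidative fibres summed to 3280 to 4190 CPM in control and 2870 to 3470 in knockout libraries, which overlapped. Of these 10 genes, 6 were below 0, and none was called by the stricter limma fit. In the less strict one the calcium-storage gene Casq2 was lower and the calcium pump gene Atp2a2 higher, as were 3.48% and 5.15% of all tested genes. Their differences were -0.387 and 0.209 (adjusted p = 0.184 and 0.332 in the stricter limma fit). The 7 adipocyte markers, all of them detected, summed to 80.0 to 96.8 CPM in control and 69.1 to 79.5 in knockout libraries. These sums did not overlap but came close. Fabp4 made up most of them, at 6.01 log2 CPM in control and 5.97 in knockout libraries, and differed by -0.045 (adjusted p = 0.857 by limma). All 6 that passed the filter were below 0, with a median difference of -0.938, and none was called in the stricter fit. Lep, Cidec, Cfd and Adipoq were lower in the less strict one, as were 3.48% of all tested genes. Their differences were -2.21, -1.20, -0.62 and -0.98, so the sums dominated by Fabp4 do not show the size of these differences. Lep and Cidec lay near the filter's limit of 0 in knockout libraries, at -0.60 and -0.08 log2 CPM. The summed markers of macrophages, endothelium, fibroblasts and tendon, erythroid cells and Schwann cells overlapped between the groups. Their part in the mitoribosomal differences was not tested.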

How the data were processed

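TRIzol extraction and a directional BGI/MGI kit with oligo-dT gave stranded libraries, per the labels' protocols. fastp, kallisto and limma are named, without versions, in the submitters' processing notes. Build, annotation and use of strand: not given in the sources used here. For 13492 genes in 10 libraries the authors deposited adjusted log2 CPM. Back-converted, a library sums to 960166 to 1016398 CPM. Counts were not used here, so the depth is unknown and counting intervals cannot be given.

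With genotype in the fit, litter coefficients of the deposited log2 values were below 1e-10 and the residuals spanned 3 dimensions where 6 were free, so litter and 3 further terms had been removed. Genes whose mean log2 CPM reached 0 (12223, leaving out 1269) were tested with limma 3.58.1 in R 4.3.3 (eBayes with trend, two-sided, Benjamini-Hochberg over all of them, threshold 0.05). The fit held genotype, litter and the removed terms, with 3 residual degrees of freedom. The less strict fit leaves the removed terms out and has 6. The removed terms' overlap with genotype cannot be recovered, so standard errors are lower bounds. The steps were tested on simulated data. No pseudocount was added.

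Transcript lengths (longest protein-coding basic transcript, otherwise the longest) and positions came from GENCODE M21 on GRCm38 by Ensembl identifier, with 172 genes of the table not matched, and promoters from RefSeq on GRCm38.p6. The members and lists were chosen with earlier results of these data known. Named members are those called in either fit, the 3 with the smallest p and the 3 highest and lowest levels per kb of each subunit, the 3 largest differences in each direction, and genes listed for their role. From each pathway list come members called in either fit, or else the 2 with the smallest p. Alternatives covered the terms of the fit, filter, pseudocount, centring, variance prior, subunit assignment and left-out libraries.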

Additional observations from a re-analysis of the deposited data

Results flagged for a closer look

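Among the 58 groups of 5 libraries examined (the 27 named genes and the subunits' medians per library), 4 held a library whose gap to its nearest neighbour exceeded the limit of 0.71 of the group's range, and chance alone flags about 1 in 20 groups. Mrpl40 was at 3.23 log2 CPM in knockout 4, where the other knockout libraries lay between 3.03 and 3.07. Mrpl32, whose protein is matured by the m-AAA protease, was at 3.56 in knockout 4, against 3.24 to 3.33 in the others. Mrps33 was at 3.87 in control 4, against 3.99 to 4.04 in the other controls. Mrps2 was at 4.25 in control 5, against 4.06 to 4.11. The first 2 of these values come from the same library, knockout 4, and in both it lay within the range of the controls.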

How the results depend on the processing

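The count of mitoribosomal genes called was 0 under every alternative except 2: it was 1 (Mrpl14) without the litter term and 3 with the removed terms not counted. The count over all genes was 41, and it was 517 without the litter term, 1054 with the removed terms not counted, 128 with the replicate block and 1 with no trend in the variance prior. Leaving out single libraries gave 1 to 54 genes called in all and 0 to 0 members; the count was 5 without control 1, 24 without control 3, 1 without control 6, 11 without knockout 2, 21 without knockout 3 and 17 without knockout 5. Leaving out a library does not take it out of the authors' adjustment, which used all 10. The median difference ran from -0.102 to -0.021 for large and from -0.082 to 0.014 for small subunit genes, and in fits with litter and genotype alone, chosen after seeing the data, from -0.069 to -0.023 and from -0.052 to -0.014. Number 4 belongs to litter 112 in knockout and litter 110 in control, so the numbers were not taken as pairs. Same-numbered libraries had correlations of -0.85, 0.45, 0.03 and -0.5 for numbers 1, 3, 4 and 5. The removal of litter ties libraries of the same litter to each other, so these correlations cannot decide on pairs. With the replicate block the medians were -0.049 and -0.041 and 0 members were called. Some named genes changed sign outside the left-out libraries: with the replicate block Mrpl17 stood at 0.001, Mrpl42 at 0.008, Mrps23 at -0.003 and Mrps26 at -0.022, and with centring within length classes Mrpl42 stood at 0.028, Mrps18a at 0.001, Mrps18b at 0.003 and Mrps26 at -0.016. In fits without single libraries and with the removed terms kept, the sign turned for 16 of the 27 named genes. Their differences then ranged as follows: Mrpl17 (-0.057 to 0.029), Mrpl19 (-0.092 to 0.107), Mrpl23 (-0.165 to 0.547), Mrpl32 (-0.226 to 0.075), Mrpl42 (-0.094 to 0.049), Mrpl44 (-0.151 to 0.204), Mrps12 (-0.105 to 0.122), Mrps18a (-0.148 to 0.041), Mrps18b (-0.122 to 0.051), Mrps18c (-0.16 to 0.036), Mrps2 (-0.02 to 0.152), Mrps23 (-0.03 to 0.036), Mrps25 (-0.138 to 0.019), Mrps26 (-0.053 to 0.093), Mrps35 (-0.284 to 0.09) and Mrps36 (-0.28 to 0.052). The 0.547 of Mrpl23 lay beyond each of its litter differences, -0.12 (108), -0.28 (110) and 0.44 (112). That value came without knockout 3 and kept the sign of the main fit's 0.076. Whether the turns of sign are effects of the left-out library alone was not tested. For the changes without the cause shown by the alternative's own construction, the cause was not tested. With depth unknown, a limit from counting cannot be given.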
